A study of Mus musculus with 16 samples.

Results

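The genes described here are 42 transcription factors of the neural crest and of the facial mesenchyme that the crest gives rise to, listed by symbol. All 42 were found among the 18193 genes measured on the arrays, so 0 were missing. The members had 85 probe sets in all, and each gene was read from 1 probe set, the one with the highest mean over the arrays. RNA came from heads of mouse embryos, per the sample titles, in a study of the early brain. There were 6 arrays of embryonic day 9.5 (E9.5), 4 of E11.5 and 6 of E13.5. The submitters call the arrays of a stage biological replicates. The sources used here give no strain, sex, genotype or treatment, nor the extent of tissue dissected around the brain. The E9.5 and E11.5 RNA was labelled with a one-cycle kit and the E13.5 RNA with an amplification kit of another maker, so that stage and labelling kit cannot be told apart in either comparison with E13.5.

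Neural crest cells arise at the border of the neural plate, lose their epithelial contacts and migrate into the face and the pharyngeal arches. There they form bone, cartilage, connective tissue, pigment cells and peripheral glia, and the jaws, the palate and the front of the skull are built largely from them. Border genes such as Tfap2a, Pax3 and Msx1 and specifiers such as Foxd3 and Sox10 act early. Snail, Zeb and Twist factors repress epithelial genes as the cells leave. Dlx, Hand, Alx, Prrx and related genes then give the mesenchyme its position. Many of these genes also act elsewhere in the head: Pax3 and Msx1 in the dorsal neural tube, Zeb1 and Zeb2 in neural cells, Lhx8 in the ventral forebrain, Sox8 and Sox10 in glia, and Ets1 in blood vessels. A head sample mixes all of these cells, and fewer cells of a type and less RNA per cell cannot be told apart in it.

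Several member proteins bind short DNA words that occur in promoters of other members. Of the 42 genes, 25 were in the RefSeq promoter table (assembly GRCm38.p6), and 21 of these had 1 listed start. The 250 bases before the start were searched on both strands for CANNTG, the E-box of Twist and Hand proteins, for CACCTG, the E-box of Snail and Zeb proteins, for GCCNNNGGC, a motif of AP-2 proteins, and for TAATTA, the core of many homeobox sites. Every CACCTG is also a CANNTG. The promoters below are those of 4 members, with matches in capitals. By the brightest probe set, Snai1 fell and Twist2 and Prrx1 rose from each stage to the next. Msx1 rose by E11.5 and then fell.
Snai1, chr2:167537945-167538194, plus strand: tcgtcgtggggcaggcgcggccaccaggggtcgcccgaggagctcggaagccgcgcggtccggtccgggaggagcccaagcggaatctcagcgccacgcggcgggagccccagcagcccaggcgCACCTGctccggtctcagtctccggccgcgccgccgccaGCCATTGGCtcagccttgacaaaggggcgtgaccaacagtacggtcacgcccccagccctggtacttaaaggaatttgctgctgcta
Twist2, chr1:91801211-91801460, plus strand: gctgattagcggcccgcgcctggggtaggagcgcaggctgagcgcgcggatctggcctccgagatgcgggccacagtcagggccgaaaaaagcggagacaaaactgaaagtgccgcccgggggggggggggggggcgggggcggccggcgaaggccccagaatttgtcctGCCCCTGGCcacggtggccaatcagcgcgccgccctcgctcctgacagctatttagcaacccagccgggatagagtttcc
Prrx1, chr1:163313651-163313900, minus strand: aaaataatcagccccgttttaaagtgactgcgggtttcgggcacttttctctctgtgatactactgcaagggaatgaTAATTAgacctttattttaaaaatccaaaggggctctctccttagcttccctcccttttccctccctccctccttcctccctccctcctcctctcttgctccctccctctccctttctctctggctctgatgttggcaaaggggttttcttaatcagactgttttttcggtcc
Msx1, chr5:37824586-37824835, minus strand: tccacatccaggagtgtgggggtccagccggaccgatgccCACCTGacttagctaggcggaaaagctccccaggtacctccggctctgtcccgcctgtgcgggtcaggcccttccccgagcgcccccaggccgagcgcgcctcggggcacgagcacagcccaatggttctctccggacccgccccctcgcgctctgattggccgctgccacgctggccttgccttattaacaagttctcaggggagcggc
The Snai1 promoter held both a CACCTG and a GCCNNNGGC match, the Twist2 promoter a GCCNNNGGC match, the Prrx1 promoter a TAATTA match and the Msx1 promoter a CACCTG match. CANNTG was in 12 of the 21 member promoters (57.1%), against 66.3% of 22862 promoters with 1 listed start. CACCTG was in 2 members (9.52%, Msx1 and Snai1) against 17.1% of those promoters. GCCNNNGGC was in 4 (19.0%, Foxc1, Prrx2, Snai1 and Twist2) against 13.3%. TAATTA was in 3 (14.3%, Hand2, Msx2 and Prrx1) against 5.04%. A match is a word in the sequence, and binding was not measured.

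Values are log2 of the deposited intensity, and the lower quartile of every array was an intensity of 12, or 3.59 on the log2 scale. The mean of Osr1, Tbx22 and Meox2 at E9.5, and of Sox8 at E11.5, lay under that level, so their signal there was at the dim end of the arrays. Among the E9.5 arrays, samples 13 and 15 differed from the rest. Both lay below the other 4 E9.5 arrays for 7 members (16.7%; Sox8, Lhx8, Prrx1, Alx1, Six2, Foxd1 and Tbx22) and above them for 6 (14.3%; Msx2, Foxd3, Sox10, Hand2, Pax9 and Tbx1), against 12.5% and 18.1% of all genes. At E13.5 the titles carry the prefix B62 or B63, whose meaning is not stated. No gene was called between the prefixes by limma (0 of 18193, or 0%), 207 genes and 0 members had an unadjusted p under 0.05, and member differences lay between -0.25 and 0.24. The spread of each gene was estimated from all 16 arrays, so small differences among the E13.5 arrays could be missed. The lack of calls does not show that the prefixes are alike. Poly-A spike-in transcripts, which are added to the RNA, had mean log2 intensities of 7.55 ± 0.22 (SD, n = 6) at E9.5, 5.38 ± 0.13 (n = 4) at E11.5 and 5.12 ± 0.10 (n = 6) at E13.5. Their part in the results was not tested.

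Cell type markers shifted between the stages as well, as sums of intensity over each list. Connective tissue markers lay between 3048 and 4036 at E9.5, 7101 and 7768 at E11.5, and 24153 and 27045 at E13.5. Of the 9 measured, 8 were higher at E11.5 than at E9.5 and 9 higher at E13.5 than at E11.5. Neural markers lay at 3675 to 4437, 9088 to 9471 and 10544 to 11514 (8 of 10 higher and 1 lower, then 4 higher and 5 lower). Skeletal muscle markers lay at 203 to 264, 199 to 216 and 5253 to 7358 (3 of 10 higher and 3 lower, then 9 higher). Surface ectoderm markers lay at 858 to 1631, 603 to 675 and 1267 to 1368 (1 of 10 higher and 4 lower, then 7 higher and 1 lower). Endothelial markers lay at 862 to 1095, 748 to 854 and 1149 to 1288 (1 of 8 higher and 3 lower, then 5 higher and 1 lower). Erythroid markers lay at 26006 to 30652, 27490 to 38626 and 13818 to 17120 (3 of 6 higher and 2 lower, then 6 lower). Macrophage markers lay at 127 to 159, 416 to 509 and 676 to 890 (5 of 7 higher, then 5 higher). No marker was at 0, since the lowest value of any array was 4 or 5. Thy1 (E9.5 and E11.5), Myf5 (all stages), Myl1 (E9.5 and E11.5), Myh3 (E9.5), Ptprc (E9.5) and Aif1 (E9.5 and E11.5) were under the lower quartile. The part of these shifts in the results on the members was not tested.

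Between E9.5 and E11.5 the facial mesenchyme factors rose more often than they fell. By limma, with p-values adjusted over all genes and a threshold of 0.05, 28 of 42 members were higher at E11.5 (66.7%, against 31.0% of all genes), 5 were lower (11.9%, against 26.9%) and 9 did not pass. The highest rises were those of Lhx8 (7.97-fold), Shox2 (7.27-fold) and Tbx15 (4.6-fold). The 5 lower members were Foxd3, Sox8, Snai1, Zeb2 and Tbx1. The median log2 difference of the members was 0.56, against 0.019 over all genes. For 22 members (52.4%) the arrays of both stages did not overlap, as for 37.7% of all genes, and 15 members rose (35.7%, against 6.08% of all genes) and 1 fell (2.38%, against 4.79%) by at least 2-fold. Without samples 13 and 15, 32 members were higher and 5 lower, and the median was 0.63.

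Between E11.5 and E13.5 more members fell than rose by the brightest probe set of each gene. At E13.5, 11 of 42 members were higher (26.2%, against 27.9% of all genes), 18 were lower (42.9%, against 27.0%) and 13 did not pass. Osr1 rose 11.0-fold, Hand2 4.29-fold and Zeb2 3.46-fold, and Snai1 fell 3.18-fold, Alx1 2.68-fold and Ets1 2.62-fold. The median log2 difference was -0.22, against 0.0 over all genes, and the arrays did not overlap for 26 members (61.9%, against 43.0%). Rises of at least 2-fold numbered 7 (16.7%, against 5.78% of all genes) and falls 4 (9.52%, against 3.80%). Read from the second-brightest probe set, which 26 members have, 8 were higher and 7 lower. Their median was -0.038, close to the -0.044 over all genes with such a probe set.

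From E9.5 to E13.5, 24 members were higher (57.1%, against 32.7% of all genes) and 5 lower (11.9%, against 29.1%), with 13 not passing. This comparison shares its arrays with both others. The 5 lower members were Msx2, Ets1, Snai1, Prrx2 and Alx4, of which only Snai1 fell by 2-fold or more (2.38% of members, against 7.08% of all genes), and 13 members rose by as much (31.0%, against 9.93%). With a random block for the title prefix, Ets1 (adjusted p = 0.115), Alx4 (0.0731) and Prrx2 (0.0603) lost this call by limma, leaving 2 lower, and Alx1 (0.0721) no longer passed as higher. Another scaling moved this split: 23 higher and 12 lower after quantile normalization, and 23 higher and 13 lower after median centring of each array, which shifted the median of all genes from 0.007 to -0.14. Under both scalings Tfap2c, Foxd3, Dlx3, Tbx1, Foxc1, Foxd1 and Foxf1 passed as lower, and Alx1 no longer passed as higher. The median log2 difference of the members was 0.54, against 0.007 over all genes, and 24 members (57.1%) did not overlap, against 44.8%. By the moderated F test over the 3 stages, 39 members passed, as did 13798 of 18193 genes, and Sox10, Twist1 and Dlx3 did not.

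**Figure D1:**
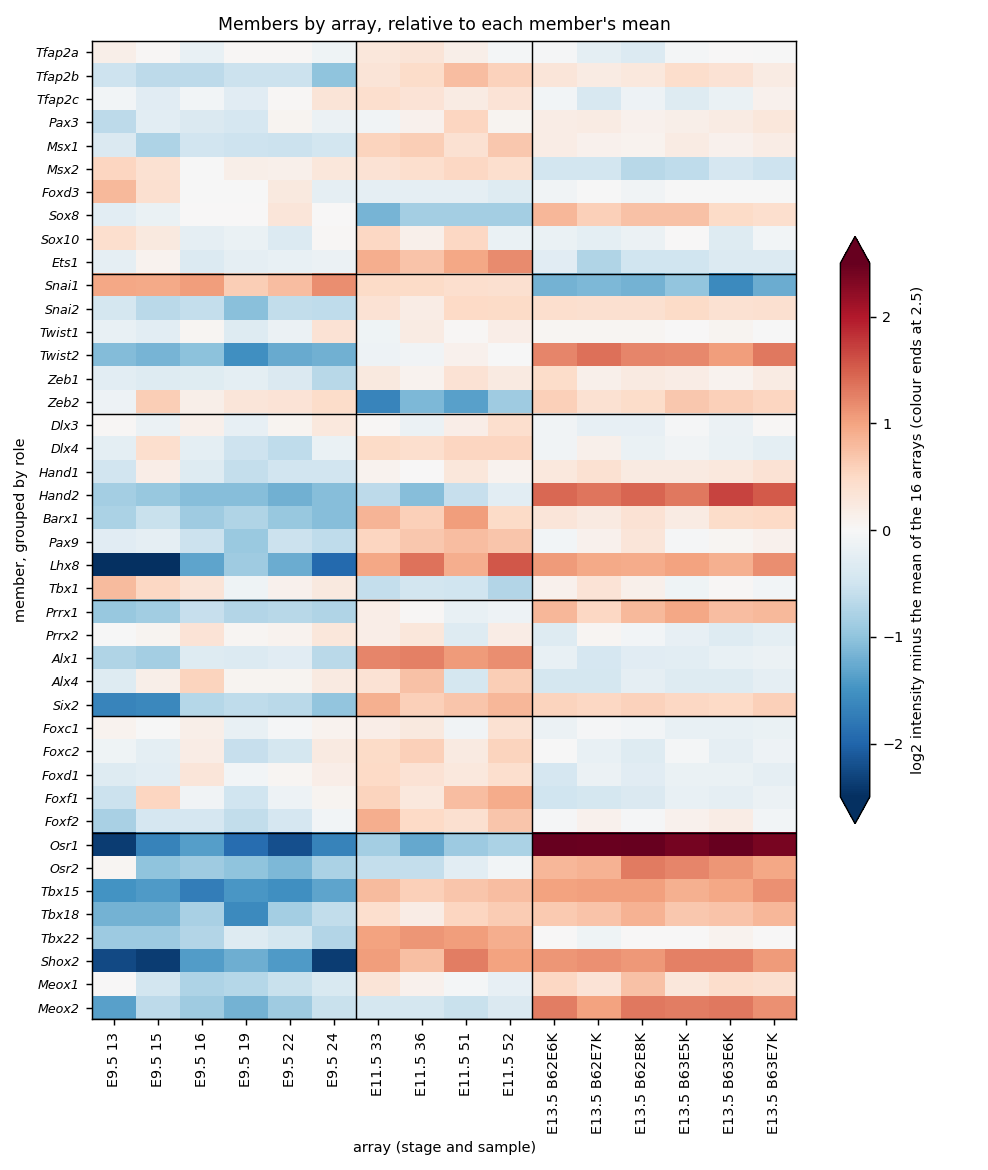
Log2 intensity of the 42 members on each of the 16 arrays (columns, by stage and sample) relative to each member's mean over the arrays, in 6 role groups separated by lines. Osr1, Hand2 and Meox2 are highest on all 6 E13.5 arrays, Alx1 and Tbx22 on the 4 E11.5 arrays, and Snai1 on the E9.5 arrays.

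The factors of the neural plate border and the crest specifiers moved in different directions. Of 10 members, 5 were higher (against 31.0% of all genes) and 2 lower (against 26.9%) at E11.5 than at E9.5. After E11.5, 1 was higher (against 27.9%) and 6 lower (against 27.0%). Tfap2b, an AP-2 factor of the crest and dorsal midbrain, had log2 intensity from 7.64 to 8.11 (median 8.04) at E9.5, 8.95, 9.09, 9.21 and 9.41 at E11.5, and 8.83 to 9.07 (median 8.92) at E13.5. All E9.5 arrays lay below all later ones, and Tfap2b rose 2.26-fold by E11.5 (log2 difference 1.18 ± 0.10 SE, adjusted p = 5e-09). Its other probe set fell by 1.42 between these stages and then rose by 2.53, so this rise holds for the brighter probe set alone. Msx1, a homeobox repressor downstream of bone morphogenetic proteins, had log2 intensities of 7.69 to 8.1 (median 7.98) at E9.5, of 8.86, 9.03, 9.08 and 9.15 at E11.5, and of 8.55 to 8.67 (median 8.62) at E13.5. No arrays of different stages overlapped for Msx1. It rose 2.12-fold by E11.5 (log2 difference 1.08 ± 0.08 SE, adjusted p = 8.7e-10) and then fell 1.33-fold (log2 difference -0.42 ± 0.08 SE, adjusted p = 0.00024), whereas its second probe set rose in both intervals (0.36 and 0.36). Msx2, its close relative, had log2 intensities that ran over 7.47 to 8.01 (median 7.68) at E9.5, stood at 7.82, 7.9, 7.9 and 7.98 at E11.5 and ran over 6.77 to 7.04 (median 6.98) at E13.5. Msx2 did not pass at E11.5 and was then 1.95-fold lower at E13.5 (log2 difference -0.96 ± 0.10 SE, adjusted p = 4.5e-08), with every E13.5 array below every earlier one, and its second probe set rose by 1.43 before it fell by 1.59.

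Ets1, an ETS factor of cranial crest and of vessels, had log2 intensity from 7.26 to 7.69 (median 7.39) at E9.5, 8.3, 8.5, 8.57 and 8.78 at E11.5, and 6.85 to 7.31 (median 7.18) at E13.5. The 4 E11.5 arrays lay above all others. Its level was 2.17-fold higher at E11.5 than at E9.5 (log2 difference 1.11 ± 0.11 SE, adjusted p = 2.2e-08) and 2.62-fold lower at E13.5 than at E11.5 (log2 difference -1.39 ± 0.11 SE, adjusted p = 9.6e-10). The other 3 probe sets of Ets1 ran the opposite way, with differences of -0.46 to -0.19, of which 1 passed, and then of 0.091 to 0.72, of which 2 passed. Of 8 endothelial markers, whose cells also use Ets1, 1 was higher (against 31.0% of all genes) at E11.5, 3 were lower (against 26.9%) and 4 did not pass. The part of these markers was not tested. Sox8, a SoxE factor of crest and glia, had log2 intensities of 3.91 to 4.46 (median 4.17) at E9.5, of 3.0, 3.32, 3.32 and 3.32 at E11.5, and of 4.59 to 5.0 (median 4.83) at E13.5. The stages did not overlap, with the lowest arrays at E11.5, where the mean was under the lower quartile. Sox8 was 1.87-fold lower at E11.5 (log2 difference -0.91 ± 0.11 SE, adjusted p = 5.3e-07) and 2.94-fold higher at E13.5 (log2 difference 1.56 ± 0.11 SE, adjusted p = 2.6e-10).

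For the remaining specifiers the differences of the brightest probe set were smaller. Tfap2a, the AP-2 factor of the border, had mean log2 intensities of 8.03 ± 0.12, 8.22 ± 0.17 and 7.93 ± 0.14 (SD, n = 6, 4 and 6, here and below in stage order), with a called fall of -0.29 after E11.5 (adjusted p = 0.0146) that was lost without E11.5 sample 33 (adjusted p = 0.051) or 36 (0.0569), or with the prefix block (0.0757). Of its other probe sets, one of similar level at E11.5 rose by 1.04 (adjusted p = 2.1e-05) and then fell by 1.54 (adjusted p = 1.1e-07), and a dimmer one fell by 0.72 at E11.5 (adjusted p = 4.6e-05). Pax3, a paired-box factor of the border, was at 7.63 ± 0.24, 8.08 ± 0.27 and 8.11 ± 0.06. The gain of 0.45 at E11.5 passed (adjusted p = 0.00321), but its other probe sets gave -0.74 and -0.13. Sox10, the SoxE factor of migrating crest and its glia, was at 7.12 ± 0.30, 7.38 ± 0.33 and 6.97 ± 0.12. Its difference of -0.40 after E11.5 passed with adjusted p = 0.0244, and lost the call without E11.5 sample 33 (adjusted p = 0.0983), E11.5 sample 51 (0.1) or E13.5 sample B63E6K (0.0509), or with the prefix block (0.0905). The second-brightest Sox10 probe set rose by 0.79 at E11.5 (adjusted p = 3.8e-06) and then fell by 0.47 (0.00102). The dimmest fell by 0.42 at E11.5 (adjusted p = 0.0102). Foxd3, a forkhead factor of premigratory crest, and Tfap2c were the other called members, with -0.45 and 0.39 at E11.5. Tfap2c, an AP-2 factor of border and surface ectoderm, then fell by 0.49 (adjusted p = 0.00106) with no overlap of the arrays. Foxd3 did not pass after E11.5 (0.22, adjusted p = 0.181), although its arrays did not overlap. It passed with only the stages compared in the fit (adjusted p = 0.00387) or without samples 13 and 15 (0.022). For Foxd3 the arrays of samples 13 and 15 were the highest of E9.5, at 5.21 and 4.81.

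**Figure D2:**
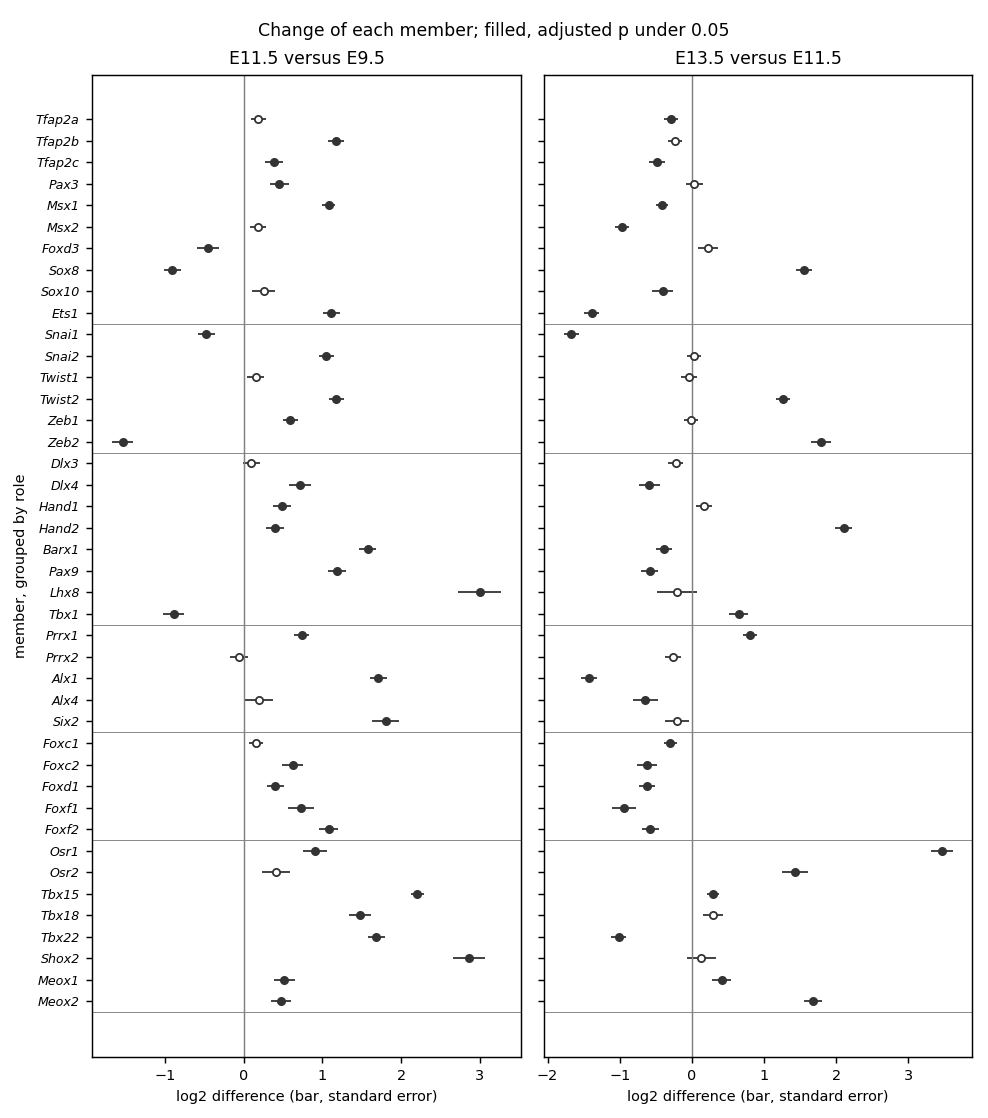
Log2 difference of each member (x axis, points, with standard errors as bars) between E11.5 and E9.5 (left) and between E13.5 and E11.5 (right), in role groups. Filled points had an adjusted p under 0.05 by limma. Lhx8 and Shox2 lie farthest right on the left side and Osr1 on the right side.

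Among the 6 repressors and bHLH factors of the epithelial-to-mesenchymal change, related genes went separate ways. Snai1, a zinc finger repressor of E-cadherin, had log2 intensities that ran over 6.62 to 7.16 (median 6.94) at E9.5, stood at 6.39, 6.41, 6.48 and 6.48 at E11.5 and ran over 4.39 to 5.0 (median 4.81) at E13.5. The 3 stages did not overlap, in falling order. Snai1 fell 1.39-fold by E11.5 (log2 difference -0.47 ± 0.11 SE, adjusted p = 0.00097) and a further 3.18-fold by E13.5 (log2 difference -1.67 ± 0.11 SE, adjusted p = 1.1e-10). Snai2, its relative in migrating crest and mesenchyme, had log2 intensity from 7.81 to 8.42 (median 8.23) at E9.5, 9.04, 9.21, 9.34 and 9.36 at E11.5, and 9.24 to 9.33 (median 9.26) at E13.5. Every E9.5 array lay below every later one, and E11.5 and E13.5 overlapped. Snai2 rose 2.07-fold by E11.5 (log2 difference 1.05 ± 0.10 SE, adjusted p = 1.5e-08), as did its second probe set by 1.11, and its difference after E11.5 was 0.03 (adjusted p = 0.821).

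Twist2, a bHLH factor of dermal and skull mesenchyme, had log2 intensities of 6.19 to 6.69 (median 6.54) at E9.5, of 7.59, 7.62, 7.71 and 7.83 at E11.5, and of 8.76 to 9.1 (median 8.94) at E13.5. Its stages did not overlap, in rising order. Twist2 rose 2.26-fold by E11.5 (log2 difference 1.18 ± 0.10 SE, adjusted p = 1.9e-09) and 2.4-fold by E13.5 (log2 difference 1.26 ± 0.10 SE, adjusted p = 7e-10). Twist1, needed for cranial crest mesenchyme, had log2 intensities that ran over 7.93 to 8.61 (median 8.08) at E9.5, stood at 8.14, 8.27, 8.41 and 8.45 at E11.5 and ran over 8.23 to 8.31 (median 8.29) at E13.5. The arrays of all stages overlapped, and no difference passed (largest 0.16, adjusted p = 0.23). Without E9.5 sample 24, rises of 0.25 at E11.5 (adjusted p = 0.0198) and of 0.21 from E9.5 to E13.5 (0.0262) passed. Both Twist genes had 1 probe set.

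Zeb1 and Zeb2, zinc finger and homeodomain repressors of E-cadherin that neural cells also use, were read with less certainty. Zeb2 had log2 intensity from 7.46 to 8.21 (median 7.92) at E9.5, 5.95, 6.25, 6.48 and 6.71 at E11.5, and 7.98 to 8.26 (median 8.17) at E13.5. The 4 E11.5 arrays lay below all others, with 2.9-fold lower values than E9.5 (log2 difference -1.54 ± 0.14 SE, adjusted p = 7.5e-09) and a 3.46-fold gain by E13.5 (log2 difference 1.79 ± 0.14 SE, adjusted p = 8.6e-10). Of its 4 other probe sets, 3 passed as higher at E11.5, by 0.35 to 0.44, and only the brightest passed as lower. Zeb1 was at 9.29 ± 0.16, 9.89 ± 0.11 and 9.87 ± 0.13 and rose by 0.60 at E11.5 (adjusted p = 1.7e-05), while its second-brightest probe set fell by 1.27 and then rose by 1.5.

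The factors that pattern the pharyngeal arches rose in 6 of 8 cases at E11.5 (against 31.0% of all genes), with 1 lower (against 26.9%). After E11.5, 2 were higher (against 27.9%) and 3 lower (against 27.0%), and 5 stood higher at E13.5 than at E9.5 (against 32.7%). Lhx8, a LIM homeobox factor of the oral side of the jaws and of the ventral forebrain, had log2 intensities of 4.32 to 6.27 (median 5.52) at E9.5, of 8.07, 8.11, 8.51 and 8.71 at E11.5, and of 8.04 to 8.31 (median 8.12) at E13.5. All E9.5 arrays lay below all later ones, and samples 13 and 15 were the lowest, at 4.32 and 4.59. It rose 7.97-fold by E11.5 (log2 difference 3.0 ± 0.27 SE, adjusted p = 1.3e-08) and did not pass between E11.5 and E13.5 (-0.20, adjusted p = 0.555). Barx1, a homeobox factor of the molar-forming jaw mesenchyme, had log2 intensities that ran over 4.59 to 5.09 (median 4.81) at E9.5, stood at 6.13, 6.25, 6.49 and 6.69 at E11.5 and ran over 5.86 to 6.15 (median 5.99) at E13.5. E9.5 did not overlap the later stages. Barx1 rose 2.98-fold by E11.5 (log2 difference 1.57 ± 0.11 SE, adjusted p = 2.8e-10) and fell 1.31-fold after it (log2 difference -0.39 ± 0.11 SE, adjusted p = 0.00504). Pax9, a paired-box factor of tooth mesenchyme and pharyngeal pouches, had log2 intensity from 4.76 to 5.46 (median 5.13) at E9.5, 6.21, 6.34, 6.38 and 6.44 at E11.5, and 5.62 to 5.98 (median 5.76) at E13.5. The order was E9.5, E13.5, E11.5 with no overlap, from a 2.28-fold rise (log2 difference 1.19 ± 0.11 SE, adjusted p = 2e-08) and a 1.5-fold fall (log2 difference -0.59 ± 0.11 SE, adjusted p = 0.00017). The other Pax9 probe sets also rose at E11.5 (0.64 and 0.36) but did not pass after it (-0.35 and -0.025).

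Hand2, a bHLH factor that endothelin signalling induces in the lower jaw, had log2 intensities of 3.46 to 3.81 (median 3.59) at E9.5, of 3.59, 4.0, 4.09 and 4.39 at E11.5, and of 5.98 to 6.34 (median 6.1) at E13.5. All 6 E13.5 arrays stood apart, and E9.5 and E11.5 overlapped. The level rose 1.32-fold by E11.5 (log2 difference 0.40 ± 0.12 SE, adjusted p = 0.00717) and 4.29-fold by E13.5 (log2 difference 2.1 ± 0.12 SE, adjusted p = 1.1e-11). Its other probe sets, near or under the lower quartile, differed by -0.34 and -0.25 in the second interval, of which the first passed. Hand1, its relative in the most distal arch, was at 4.87 ± 0.27, 5.35 ± 0.12 and 5.52 ± 0.07. It rose by 0.49 (adjusted p = 0.00095), with E9.5 sample 15 at 5.39 inside the E11.5 range, and its second probe set fell by 0.90 after E11.5. Tbx1, a T-box factor of arch mesoderm and endoderm, had log2 intensities that ran over 5.49 to 6.39 (median 5.87) at E9.5, stood at 4.86, 5.0, 5.09 and 5.13 at E11.5 and ran over 5.49 to 5.93 (median 5.66) at E13.5. The E11.5 arrays were the lowest and did not overlap the others, after a 1.85-fold fall (log2 difference -0.89 ± 0.13 SE, adjusted p = 9.1e-06) and before a 1.57-fold rise (log2 difference 0.65 ± 0.13 SE, adjusted p = 0.00034). Dlx3 and Dlx4, distal-less homeobox genes of the ventral arch, were dim at every stage, at 4.81 ± 0.17, 4.9 ± 0.24 and 4.68 ± 0.09 and 4.1 ± 0.37, 4.82 ± 0.05 and 4.23 ± 0.13. Dlx4 rose by 0.72 (adjusted p = 0.00019) and then fell by 0.59 (adjusted p = 0.00136), and no Dlx3 difference passed. The second Dlx4 probe set, with means near the lower quartile, did not pass in either interval (0.15 and -0.038).

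**Figure D3:**
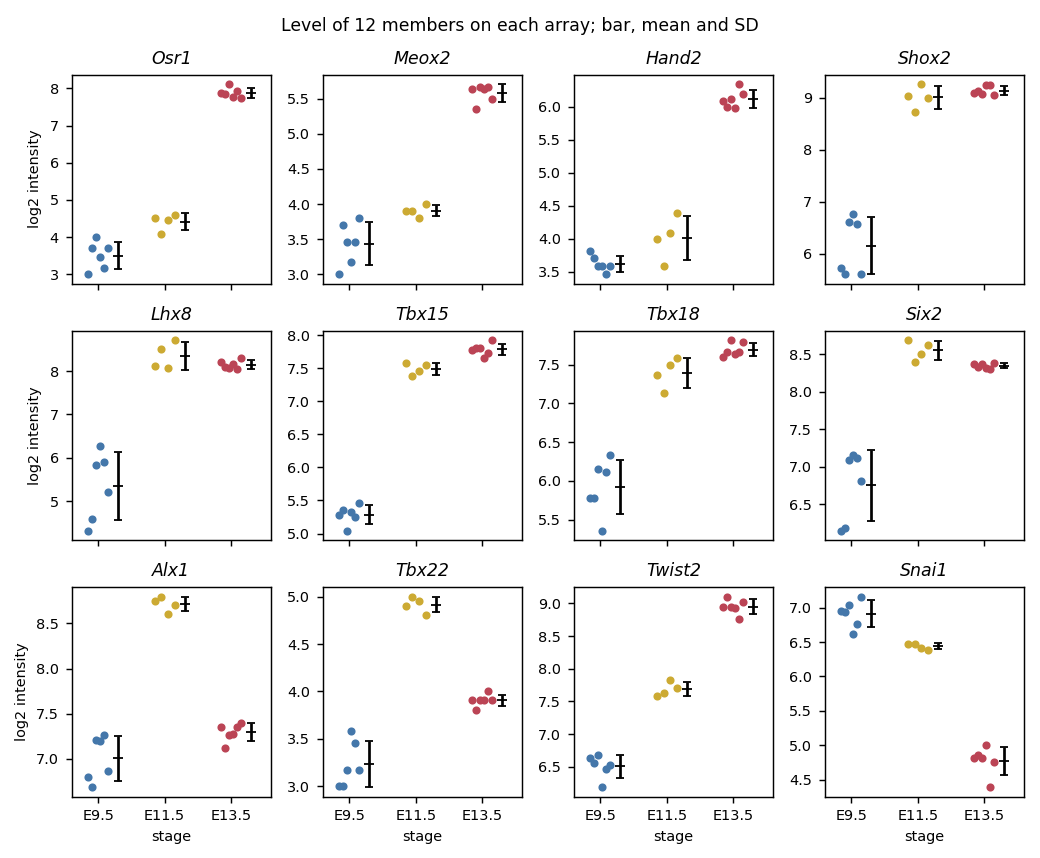
Log2 intensity (y axis, a scale of its own for each gene) of 12 members on each array by stage, with the mean and SD at the right of each stage. Osr1, Meox2 and Hand2 rise mostly after E11.5, Shox2, Lhx8, Tbx15, Tbx18 and Six2 mostly before it, Alx1 and Tbx22 are highest at E11.5, Twist2 rises in both intervals and Snai1 falls in both.

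In the homeobox group of face and skull mesenchyme, Prrx1, Alx1 and Six2 rose at E11.5 and Prrx2 and Alx4 did not pass. Prrx1, a paired-related factor of craniofacial and limb mesenchyme, had log2 intensity from 8.24 to 8.6 (median 8.44) at E9.5, 8.99, 9.06, 9.22 and 9.35 at E11.5, and 9.7 to 10.16 (median 9.99) at E13.5. The stages did not overlap, in rising order, by 1.66-fold (log2 difference 0.74 ± 0.10 SE, adjusted p = 1.8e-06) and then 1.76-fold (log2 difference 0.81 ± 0.10 SE, adjusted p = 5.1e-07). All 5 other Prrx1 probe sets also passed as higher at E11.5, by 0.30 to 2.01, but in the second interval 2 passed as higher and 2 as lower. Prrx2, which overlaps with Prrx1 in function, had log2 intensities of 8.28 to 8.64 (median 8.37) at E9.5, of 7.96, 8.46, 8.47 and 8.57 at E11.5, and of 7.98 to 8.33 (median 8.06) at E13.5. All stages overlapped, and the difference of -0.32 between E13.5 and E9.5 was the only one to pass (adjusted p = 0.00858), and did not pass with the prefix block (adjusted p = 0.0603).

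Alx1, a homeobox factor of frontonasal mesenchyme around the eye and nose, had log2 intensities that ran over 6.69 to 7.27 (median 7.04) at E9.5, stood at 8.61, 8.71, 8.75 and 8.79 at E11.5 and ran over 7.12 to 7.4 (median 7.31) at E13.5. The 4 E11.5 arrays stood above all others. Its rise was 3.27-fold (log2 difference 1.71 ± 0.11 SE, adjusted p = 6.1e-11) and its later fall 2.68-fold (log2 difference -1.42 ± 0.11 SE, adjusted p = 8.3e-10), and its second probe set moved alike, by 0.73 and -0.93. The small rise from E9.5 to E13.5 (0.29, adjusted p = 0.0133) was 1.22-fold and did not hold without samples 13 and 15 (0.16, adjusted p = 0.116). Alx4, of the same family, was dim, at 4.15 ± 0.29, 4.34 ± 0.53 and 3.7 ± 0.10, and fell by 0.65 after E11.5 (adjusted p = 0.00392), with overlapping arrays. Without E9.5 sample 16 its fall of 0.45 from E9.5 to E13.5 did not pass (-0.36, adjusted p = 0.0536). Six2, a factor that keeps mesenchymal progenitors in the skull base and kidney, had log2 intensity from 6.15 to 7.16 (median 6.95) at E9.5, 8.41, 8.5, 8.63 and 8.69 at E11.5, and 8.31 to 8.39 (median 8.35) at E13.5. All E9.5 arrays were the lowest, and samples 13 and 15, at 6.15 and 6.19, lay below the other 4 (6.81 to 7.16). Six2 rose 3.49-fold by E11.5 (log2 difference 1.8 ± 0.17 SE, adjusted p = 1.5e-08).

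Foxd3 aside, 5 members are forkhead factors of the mesenchyme. At E11.5, 4 were higher than at E9.5 (80.0%, against 31.0% of all genes) and Foxc1 did not pass. At E13.5 all 5 were lower than at E11.5 by the brightest probe set (median log2 difference -0.62, against 0.0 over all genes, of which 27.0% were lower). No second probe set, which Foxc1, Foxf1 and Foxf2 have, passed after E11.5. Foxf2, a hedgehog-responsive factor of palate mesenchyme, had log2 intensities of 4.25 to 5.0 (median 4.64) at E9.5, of 5.46, 5.56, 5.76 and 5.98 at E11.5, and of 5.0 to 5.25 (median 5.11) at E13.5. It rose 2.11-fold (log2 difference 1.08 ± 0.12 SE, adjusted p = 1.9e-07) with no overlap and fell 1.49-fold (log2 difference -0.57 ± 0.12 SE, adjusted p = 0.0004). The second Foxf2 probe set, with means under the lower quartile, did not pass in either interval (-0.051 and -0.056). Foxf1, its relative, had log2 intensities that ran over 5.04 to 6.11 (median 5.48) at E9.5, stood at 5.83, 6.13, 6.34 and 6.51 at E11.5 and ran over 5.09 to 5.43 (median 5.28) at E13.5. Its rise was 1.66-fold (log2 difference 0.73 ± 0.17 SE, adjusted p = 0.00079), with E9.5 sample 15 inside the E11.5 range, and its fall 1.91-fold (log2 difference -0.94 ± 0.17 SE, adjusted p = 6.9e-05). The second Foxf1 probe set rose by 0.90 and did not fall (0.24), so the fall rests on the brighter one. Foxc1 and Foxc2, factors of skull mesenchyme, meninges and eye, were at 8.36 ± 0.12, 8.52 ± 0.20 and 8.22 ± 0.06 and 7.25 ± 0.33, 7.88 ± 0.18 and 7.25 ± 0.12. Foxc2 rose by 0.63 and fell by 0.62 (adjusted p = 0.0005 and 0.00056), and Foxc1 fell by 0.30 (adjusted p = 0.007). The second Foxc1 probe set fell by 0.55 at E11.5 and did not pass after it (0.17, adjusted p = 0.313). Foxd1, which acts in facial mesenchyme and in the forebrain and retina, was at 8.32 ± 0.24, 8.73 ± 0.10 and 8.11 ± 0.10, with differences of 0.40 and -0.62 (adjusted p = 0.00311 and 5.4e-05).

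All 8 members of the odd-skipped, T-box, Shox and Meox group were higher at E13.5 than at E9.5, against 32.7% of all genes. Their arrays did not overlap, as for 44.8% of all genes, and the median log2 difference was 2.0, against 0.007. Osr1, an odd-skipped zinc finger factor of embryonic mesenchyme and connective tissue, had log2 intensity from 3.0 to 4.0 (median 3.58) at E9.5, 4.09, 4.46, 4.52 and 4.59 at E11.5, and 7.74 to 8.12 (median 7.86) at E13.5. The 3 stages did not overlap, in rising order. It rose 1.88-fold by E11.5 (log2 difference 0.91 ± 0.15 SE, adjusted p = 3.6e-05) and 11.0-fold by E13.5 (log2 difference 3.46 ± 0.15 SE, adjusted p = 2.8e-13). Osr2, its relative in palate and tooth mesenchyme, had log2 intensities of 3.46 to 4.64 (median 3.64) at E9.5, of 4.0, 4.0, 4.32 and 4.52 at E11.5, and of 5.43 to 5.88 (median 5.63) at E13.5. The E13.5 arrays stood above all earlier ones, for a rise of 2.69-fold (log2 difference 1.43 ± 0.18 SE, adjusted p = 8.5e-07). Its difference at E11.5 did not pass (0.42, adjusted p = 0.0509), and passed without samples 13 and 15 (0.57, adjusted p = 0.000958), since sample 13 was at 4.64 and the other E9.5 arrays at most at 3.81. The second Osr2 probe set did not pass (differences of -0.029 and 0.002).

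Tbx15, a T-box factor of skin and skeletal mesenchyme, had log2 intensities that ran over 5.04 to 5.46 (median 5.3) at E9.5, stood at 7.38, 7.46, 7.55 and 7.57 at E11.5 and ran over 7.66 to 7.92 (median 7.79) at E13.5. The stages did not overlap, in rising order. It rose 4.6-fold by E11.5 (log2 difference 2.2 ± 0.08 SE, adjusted p = 9.1e-14) and 1.23-fold after it (log2 difference 0.30 ± 0.08 SE, adjusted p = 0.00501), while its second probe set rose by 0.62 and then did not pass (-0.11). Tbx18, its close relative, had log2 intensity from 5.36 to 6.34 (median 5.95) at E9.5, 7.14, 7.37, 7.49 and 7.59 at E11.5, and 7.6 to 7.81 (median 7.66) at E13.5. It rose 2.79-fold by E11.5 (log2 difference 1.48 ± 0.14 SE, adjusted p = 2.2e-08), and its second probe set rose by 0.76. Its later difference did not pass (0.30, adjusted p = 0.083), although the arrays did not overlap. It passed with only the stages compared in the fit (adjusted p = 0.0115) or without E9.5 sample 19 (0.0309). Tbx22, the palate factor mutated in X-linked cleft palate, had log2 intensities of 3.0 to 3.59 (median 3.17) at E9.5, of 4.81, 4.91, 4.95 and 5.0 at E11.5, and of 3.81 to 4.0 (median 3.91) at E13.5. Every E11.5 array was above every E13.5 array and these above every E9.5 array. Tbx22 rose 3.22-fold (log2 difference 1.69 ± 0.10 SE, adjusted p = 3.7e-11) from a dim level and then fell 2.02-fold (log2 difference -1.01 ± 0.10 SE, adjusted p = 5.6e-08).

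Shox2, a homeobox factor of anterior palate mesenchyme, had log2 intensities that ran over 5.62 to 6.77 (median 6.15) at E9.5, stood at 8.74, 9.0, 9.04 and 9.27 at E11.5 and ran over 9.06 to 9.25 (median 9.12) at E13.5. E9.5 lay below both later stages, which overlapped, and samples 13, 15 and 24 were at 5.73, 5.62 and 5.62 while the other 3 E9.5 arrays were at 6.57 to 6.77. Shox2 rose 7.27-fold by E11.5 (log2 difference 2.86 ± 0.20 SE, adjusted p = 2.3e-10), and its second probe set by 1.47. Its later difference was 0.13 (adjusted p = 0.595). Meox2, a homeobox factor of muscle-forming mesoderm, had log2 intensity from 3.0 to 3.81 (median 3.46) at E9.5, 3.81, 3.91, 3.91 and 4.0 at E11.5, and 5.36 to 5.67 (median 5.64) at E13.5. E13.5 stood above all earlier arrays, for a rise of 3.19-fold (log2 difference 1.68 ± 0.13 SE, adjusted p = 6.8e-10), and the second probe set rose by 1.25. Skeletal muscle markers also rose in that interval (9 of 10), as did connective tissue markers (9 of 9), against 27.9% of all genes. The part of these markers was not tested. Meox1, its relative, was at 4.94 ± 0.28, 5.46 ± 0.22 and 5.87 ± 0.16 and rose by 0.52 and 0.41 (adjusted p = 0.00245 and 0.013), the latter lost without E11.5 sample 52 (0.33, adjusted p = 0.0595) or with the prefix block (adjusted p = 0.0645).

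Closely related members were then set against each other within each array, where a factor common to all genes of the array cancels. The 14 pairs were chosen after the values were seen, so their ratios are a description of the differences above, with no test, and a ratio does not show which gene changed. The arrays of the earlier and the later stage did not overlap for 9 ratios from E9.5 to E11.5 and for 11 from E11.5 to E13.5. The share among ratios of other genes was not computed, so these counts have no reference. Single genes did not overlap for 37.7% and 43.0% of all genes. The log2 ratio of Snai2 to Snai1 was higher by 1.52 at E11.5 than at E9.5 and by a further 1.70 at E13.5. That of Twist2 to Twist1 was higher by 1.02 and then 1.30, and that of Prrx1 to Prrx2 by 0.80 and 1.07. Alx1 gained 1.51 on Alx4 and lost 0.78 by E13.5. Osr1 gained 0.49 on Osr2 at E11.5, with overlapping arrays, and 2.04 at E13.5.

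Some ratios depend on the probe set that is read. After E11.5 Prrx2 differed by -0.26, and the other Prrx1 probe sets by 0.79, 0.47, -0.05, -1.13 and -0.48. Msx1 gained 0.90 and 0.55 on Msx2, but by their second probe sets Msx2 rose more than Msx1 at E11.5 (1.43 and 0.36), with the second Msx2 probe set at a mean log2 intensity of 3.03 at E9.5. Hand2 against Hand1 differed by -0.09 at E11.5 and gained 1.94 at E13.5, while neither of the other Hand2 probe sets rose after E11.5. Meox2 against Meox1 differed by -0.04 and then gained 1.26, and the second Meox2 probe set also rose after E11.5 (1.25). For Foxf2 against Foxf1 the gains were 0.35 and 0.36, with overlapping arrays in both intervals.

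**Figure D4:**
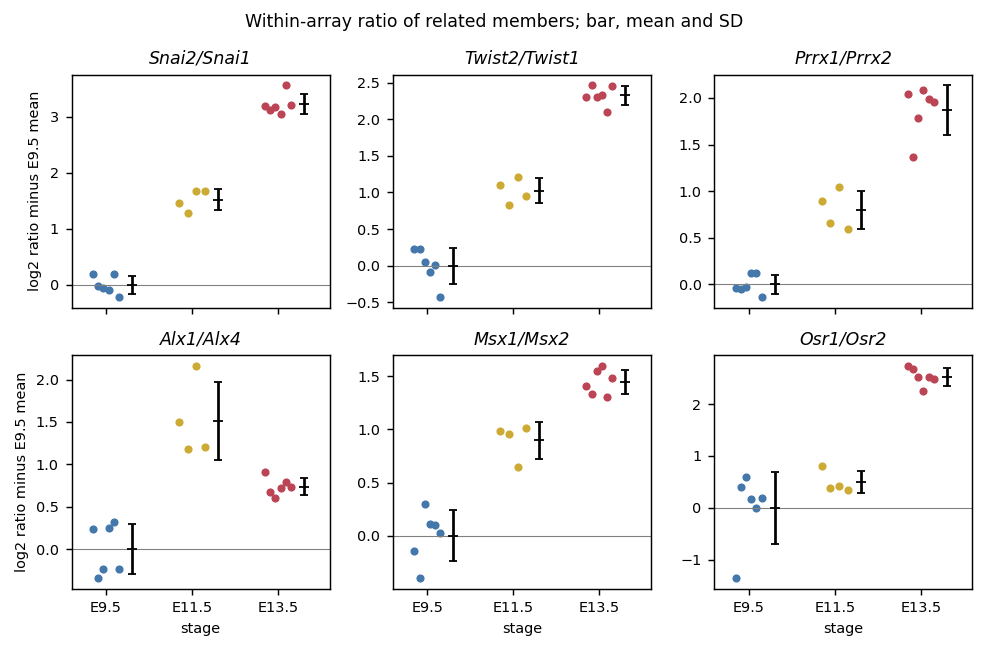
Log2 ratio of related members, by the brightest probe set of each, on each array (y axis), set to 0 at the E9.5 mean, by stage (x axis), with the mean and SD at the right of each stage. The Snai2 to Snai1, Twist2 to Twist1, Prrx1 to Prrx2 and Msx1 to Msx2 ratios rise in both intervals, and Alx1 to Alx4 is highest at E11.5.

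Of the 42 members, 16 had 1 probe set and 26 had 2 or more. Among members called at E11.5 against E9.5 with further probe sets (20), 11 had others that passed only in the same direction and 5 had one that passed in the opposite direction (Tfap2b, Pax3, Ets1, Zeb1 and Zeb2). At E13.5 against E11.5 this held for 6 and 5 of 18 (Msx1, Ets1, Zeb2, Hand2 and Prrx1 in the opposite direction). At E13.5 against E9.5 it held for 10 and 4 of 18 (Pax3, Ets1, Hand1 and Hand2). Which transcript each probe set reads was not analysed here.

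**Figure D5:**
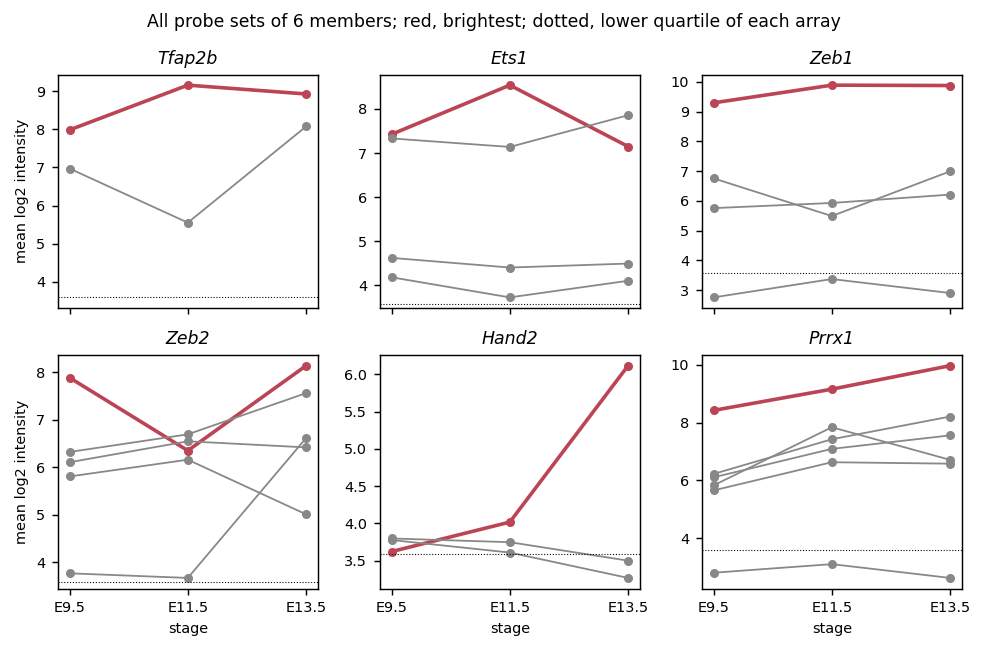
Mean log2 intensity (y axis) of every probe set of 6 members by stage (x axis), the one used in red and the others in grey, with the lower quartile of each array dotted. In each of the 6 members at least 1 grey line runs against the red line in at least 1 interval.

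Other genes of the same pathways, from lists set beside the members, moved as follows. Of 20 further crest and facial transcription factors, 12 were higher and 2 lower at E11.5 (Lhx6 1.45, Dlx2 1.42, Sox9 1.32 and Dlx5 1.0 on the log2 scale), and 10 were higher and 5 lower at E13.5 than at E11.5 (Mef2c 1.54, Dlx1 1.38, Pitx1 1.24 and Eya1 -1.24). The medians were 0.48 and 0.21. Of 27 ligands and receptors that guide crest and face, 12 were higher (44.4%) and 7 lower (25.9%, near the share of all genes) at E11.5. After it, 10 were higher (37.0%) and 11 lower (40.7%). Their medians were 0.08 and -0.021, against 0.019 and 0.0 over all genes. Pdgfra, the growth factor receptor of cranial mesenchyme, rose by 1.83 and Ednrb, an endothelin receptor of crest, by 1.69 at E11.5. Shh, the hedgehog ligand of facial epithelium and ventral brain, rose by 1.24 and then fell by 2.85. Tgfb3, which acts in palate fusion, rose by 2.62 after E11.5. Among 15 adhesion and matrix genes of the epithelial-to-mesenchymal change, 9 were higher and 3 lower at E11.5 and 8 higher and 4 lower at E13.5 against E11.5, with medians of 0.48 and 0.43. Cdh1, the E-cadherin that Snail and Zeb proteins repress, fell by 1.15 at E11.5 and rose by 0.60 after it. Lox, a collagen cross-linking enzyme, rose by 2.45 and 2.17.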

How the data were processed

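Total RNA of mouse embryo heads was labelled with biotin and hybridised to 16 short oligonucleotide arrays of 1 colour. The authors deposited a linear intensity per probe set, in whole numbers, computed by RMA per the submitters' processing notes. The sources used here give neither its version nor its settings. RMA scales the arrays to one another, so values are relative to the other transcripts, and rounding makes coarse steps at the dim end. Precision is limited by the number of arrays, which have no read depth.

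Each deposited intensity was turned into its log2. Leaving aside 64 control probe sets, 34945 of the 45101 probe sets named 1 gene in the platform annotation, 932 named several and 9160 none here. The probe set with the highest mean stood for each of 18193 genes. Unused columns of sample values numbered 0, and 0 pairs of arrays were identical. Stages were compared in 1 fit of all 16 arrays by limma 3.58.1 (R 4.3.3; lmFit, contrasts.fit, eBayes). P-values were adjusted by Benjamini-Hochberg over all genes in each comparison, and an adjusted p under 0.05 was called. The fit was tested on simulated data. Errors are standard errors of the difference, or the SD of a stage.

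The members and gene lists were chosen with earlier results of these data known. Values in full are given for members with a called difference of at least 1 (log2), and for up to 3 others per role group. List genes named are up to 4 called ones of largest difference per list and comparison, and values of Cdh1 and Ibsp outside that rule were picked after they were seen. Ratios of related members, given without a test, and tests of single probe sets were added after the values were seen. Alternatives were other scalings, an offset, other probe sets of a gene, a filter on dim genes, fits of fewer stages, another variance model, a block for the title prefix, and leaving out arrays. Gene positions were not analysed here, and promoters are from RefSeq.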

Additional observations from a re-analysis of the deposited data

Results flagged for a closer look

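In 6 of 126 groups of arrays (42 members at 3 stages) 1 array lay far from the others by Dixon's test, which chance flags in about 1 group in 20 (5%). Tfap2b was at 7.637 in E9.5 sample 24, against 7.989 to 8.114 in the other 5 arrays. Zeb1 was at 8.974 in the same sample, against 9.288 to 9.412. Hand1 was at 5.392 in E9.5 sample 15, against 4.644 to 4.907. Osr2 was at 4.644 in E9.5 sample 13, against 3.459 to 3.807. Sox8 was at 3.0 in E11.5 sample 33, with the other 3 arrays at 3.322. Foxd3 was at 4.087 in E11.5 sample 52, with the other 3 at 4.17. The Sox8 and Foxd3 values are dim, where rounding to whole intensities leaves few distinct values.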

How the results depend on the processing

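The differences of the members between stages, their counts and their medians were recomputed under 26 other settings. Ratios of members, other gene lists, the F test and the overlap of arrays were not. No called difference of a member changed sign outside the choice of probe set (0 cases). Reading a gene from its second-brightest probe set, which 26 members have, or from the average of its probe sets reversed 36 values. Some reversed values did not pass, such as 0.011 for Ets1 from E9.5 to E13.5 (adjusted p = 0.904 by limma). Others reverse a difference not called by the brightest probe set, such as that of Zeb1 after E11.5 (-0.013, adjusted p = 0.921 by limma). From E9.5 to E11.5 the reversed values were -0.122 and -1.423 for Tfap2b (mean, then second-brightest), -0.139 and -0.125 for Pax3, and with the second-brightest -0.193 for Ets1, -1.267 for Zeb1, 0.371 for Zeb2, -0.049 for Hand2, -0.546 for Foxc1, -0.051 for Foxf2 and -0.093 for Meox2. From E11.5 to E13.5 they were 1.148 and 2.529 for Tfap2b, 0.325 and 1.502 for Zeb1, -0.369 and -0.9 for Hand1, and with the second-brightest -0.62 for Pax3, 0.36 for Msx1, 0.719 for Ets1, -0.249 for Hand2, 0.172 for Foxc1, 0.24 for Foxf1 and -0.105 for Tbx15. From E9.5 to E13.5 they were -0.28 and -0.745 for Pax3, 0.011 and 0.526 for Ets1, 0.468 and 1.141 for Foxf1, and with the second-brightest 0.314 for Sox10, -0.568 for Hand1, -0.298 for Hand2, -0.196 for Alx1, -0.106 for Foxf2 and -0.027 for Osr2. The cause was not tested. With the second-brightest probe set, over 26 members, 15 were higher and 3 lower at E11.5 against E9.5 (median 0.366, against -0.029 over all genes). At E13.5 against E11.5, 8 were higher and 7 lower (median -0.038, against -0.044). At E13.5 against E9.5, 12 were higher and 6 lower (median 0.263, against -0.07). Shares of all genes called were not counted under this setting. With the mean of all probe sets the median was 0.405 at E11.5 against E9.5, -0.098 at E13.5 against E11.5 and 0.382 at E13.5 against E9.5, where 10 members were lower. With log2 of the value plus 16, which shrinks dim values, the first and last of these medians were 0.414 and 0.351. For E13.5 against E9.5, 12 members were lower after quantile normalization and 13 after median centring (median 0.399), against 5, and 2 with a random block for the title prefix. That block was fitted with a correlation of 0.601 and ended the calls of 7 member differences (Tfap2a, Sox10 and Meox1 after E11.5, and Ets1, Prrx2, Alx1 and Alx4 from E9.5 to E13.5). Only E13.5 arrays shared a block, so a prefix effect and a smaller spread at E13.5 cannot be told apart in this correlation. Calls were also gained. A fit of only the 2 stages compared added calls for 5 member differences. Leaving out E9.5 samples 13 and 15 added 8 and ended 2.

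Leaving out each array in turn gave 28 to 31 members higher and 5 lower at E11.5 against E9.5 (median 0.505 to 0.614). It gave 10 to 12 higher and 17 to 19 lower at E13.5 against E11.5 (median -0.239 to -0.154), and 24 to 26 higher and 4 to 6 lower at E13.5 against E9.5 (median 0.5 to 0.57). In 5 cases a member's call was lost without 1 array, for Tfap2a, Sox10 and Meox1 after E11.5 and for Ets1 and Alx4 from E9.5 to E13.5; for Ets1 this was E13.5 sample B62E7K (-0.215, adjusted p = 0.0504 by limma). Settings not named here kept each count within 1.5 times of its value. No paired analysis was possible because the stages share no replicate numbers. Signals near the lower quartile of the arrays limit what can be said of Osr1, Tbx22, Meox2 and Sox8. The same limit holds for Hand2 and Osr2, with means of 3.62 and 3.8 at E9.5, and for Alx4, at 3.7 at E13.5.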

Other observations

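Genes of the tissues that the crest forms moved at different times. Among 9 facial skeleton genes, 1 was higher and 1 lower at E11.5 than at E9.5 (11.1% each, median log2 difference -0.088). At E13.5, 6 were higher (66.7%) and 0 lower than at E11.5 (median 1.42). Ibsp, a bone matrix protein, had a difference of 0.05 in the first interval (adjusted p = 0.825 by limma) and rose by 3.65 in the second. The cartilage genes Acan, Matn1 and Col2a1 rose by 2.55, 2.54 and 1.82. Among 10 glia and pigment genes, 6 rose and 1 fell by E11.5, and 3 were higher and 0 lower at E13.5 than at E11.5. Fabp7, a fatty acid binding protein of glia and of neural progenitors, rose by 1.81 and 1.02, and Dct, a melanin enzyme also present in the early brain and eye, by 1.53 and 1.07. Mitf, the regulator of pigment cells and of the pigmented retina, fell by 0.82 at E11.5.

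Among 7 autonomic and sensory ganglion genes, 3 rose (42.9%, against 31.0% of all genes) and 1 fell (14.3%, against 26.9%) by E11.5. At E13.5, 4 were higher (57.1%, against 27.9%) and 1 lower (14.3%, against 27.0%) than at E11.5. Isl1, a LIM homeobox factor of sensory and motor neurons, rose by 1.89 and then fell by 0.38. Dbh, which makes noradrenaline, rose by 0.86 after E11.5, and Th, the first enzyme of that pathway, by 0.46 and 0.58. The second interval is also the one in which the labelling kit changed.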
